A study of Mus musculus with 165 samples.

Results

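Short A domains are stretches of active chromatin under 250 kb long, and 499 of the 1397 A domains listed on the autosomes of untreated mouse neutrophils were of this length. They were chosen by measured values: the domains were called by the authors on PC1 of the untreated neutrophil track, and a member is any autosomal domain of that list whose end minus start is under 250 kb. The members held 75.9 Mb, which is 7.81% of the length of all listed autosomal A domains and 3.20% of the 94800 autosomal bins with a value in all 4 tracks. PC1, the first principal component of the Hi-C contact matrix, is a score without a unit, given here for bins of 25 kb.

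Chromosomes fold so that active, gene-rich chromatin contacts other active chromatin (compartment A) and inactive chromatin contacts other inactive chromatin (compartment B). Positive PC1 is called A and negative PC1 is called B by convention. Compartment B is known to lie mostly at the nuclear lamina and around the nucleolus, and a short A stretch between B stretches lies beside chromatin with other contact partners on both sides. Neutrophils have lobed nuclei with much condensed chromatin, and calcium influx is known to drive several of their effector responses.

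The cells were ECOMG cells, a C57BL/6 mouse myeloid line that carries human E2A_ER_Pbx1b and is otherwise labelled wild type, so that all groups share this background and this line. Progenitors were the undifferentiated, untreated cells, and the labels list 1 track for their 7 Hi-C libraries. Untreated neutrophils were obtained by taking estradiol away for 5 days, and 1 track is listed for their 8 libraries from 7 replicates. Activated neutrophils were given 20 uM A23187, a calcium ionophore, for 15 min or for 30 min, with calcium at 1 mM, and each time is 1 sample. Each group has 1 track, so no difference below has a replicate check, no test was possible and no p-value is given. Quartiles and ranges over members or chromosomes describe how regions vary, and regions and chromosomes are not replicates. The files give no read depth, so it is unknown. Per the labels' protocols, the progenitor and untreated libraries were sequenced on another instrument model than the activated ones. Their titles also mark them as re-analysis, and those of the activated samples do not. Activation cannot be told apart from these differences, in comparisons with progenitors as in those with untreated neutrophils. Time goes with the replicate label, which is 2 at 15 min and 1 at 30 min. No genome or annotation of build mm9 was used here, so regions are given by mm9 position and without genes or sequence.

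The members had a median length of 150 kb. The shortest were 100 kb, and 116 members had that length, against 88 of 150 kb, 71 of 200 kb and 55 of the longest class, 1 bin under the limit. Lengths of 4 members were no multiple of 25 kb. They lay on all 19 autosomes, at 14.0 per 100 Mb on chromosome 12 to 31.6 per 100 Mb on chromosome 10. Chromosome 1 held the most, 54, and also had the most sequence covered, 192 Mb. Members were 29.1% of the listed A domains on chromosome 12, 47.1% on chromosome 10 and 41.9% on chromosome 1. Over all autosomes they were 35.7%. The nearest other listed A domain lay within 250 kb for 286 members (57.3%) and over 1 Mb away for 61, and the quartiles of this gap were 100 and 538 kb. A listed B domain started or ended within 100 kb on both sides of 361 members, on 1 side of 128 and on neither side of 10, and these neighbouring B domains had a median length of 500 kb.

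The name island in B held for some of the members and not for the others. Over the 250 kb on either side, mean PC1 in untreated neutrophils was below zero on both sides of 285 of the 496 members that had bins on both sides (57.5%), beside 61.8% of all listed autosomal A domains. It was below zero on 1 side of 188 (37.9%) and on neither side of 23 (4.64%). The 188 and the 23 had a flank that was not below zero and are not islands in this sense. All members are described together below, and the 285 separately where they differ.

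In untreated neutrophils, whose values chose the members, mean PC1 in the domain had a median of 0.55 (quartiles 0.372 and 0.706, range 0.061 to 1.29). These positive values are a description of the choice and no result. The flanks had a median of -0.360 (quartiles -0.567 and -0.149). Longer A domains stood higher in the same track, with a median of 0.935 for those from 250 kb to under 1 Mb and 1.25 for those of 1 Mb or more.

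The other 3 tracks did not enter the choice, and in them the members differed in level. At 15 min the median over members was 0.576 (quartiles 0.341 and 0.781, range -0.577 to 1.34), close to that of the untreated track. In progenitors it was 0.301 (quartiles 0.00589 and 0.611, range -0.761 to 1.33), and at 30 min 0.283 (quartiles 0.00882 and 0.547, range -0.660 to 1.36). The distributions overlapped, and the lower quartile lay close to zero in progenitors and at 30 min but well above it at 15 min.

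**Figure D1:**
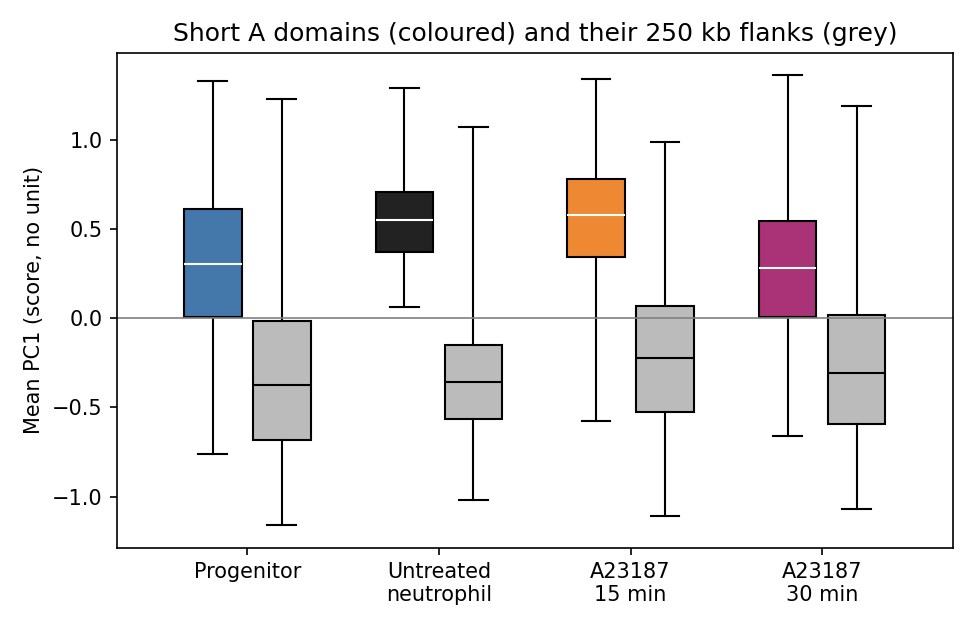
Mean PC1 (score, no unit) of the 499 short A domains (coloured boxes) and of their flanks of 250 kb on either side (grey boxes, 496 members with bins on both sides), for each track. Boxes span the quartiles with the median as a line, and whiskers run to the lowest and highest member; the domains of the untreated and 15 min tracks have medians of 0.55 and 0.576, those of the progenitor and 30 min tracks 0.301 and 0.283.

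Counted by sign, 121 of the 499 members (24.2%) had a mean PC1 below zero in progenitors, beside 11.3% of all listed autosomal A domains. At 15 min the count was 29 (5.81%, all A domains 2.86%), and at 30 min it was 122 (24.4%, all A domains 10.4%). The members are part of that background and hold 121 of its 158, 29 of its 40 and 122 of its 145 domains. The tracks also differed in how many of all autosomal bins were above zero, 46.9% at 15 min, against 42.9% in progenitors, 41.7% in untreated neutrophils and 44.0% at 30 min. With every track quantile-normalized to the untreated one, 90 members (18%) were below zero at 15 min, 156 (31.3%) in progenitors and 180 (36.1%) at 30 min. With a margin of 0.1 the count at 15 min was 13 (2.61%).

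By sign pattern, 336 members (67.3%) were above zero in all 4 tracks, beside 84.9% of all listed A domains. The next most frequent pattern was 61 members (12.2%) that were below zero in progenitors and at 30 min but above zero in untreated neutrophils and at 15 min. Another 37 were below zero in progenitors alone and 36 at 30 min alone, and 22 were below zero in all 3 other tracks. Members below zero at 15 min but not in both other tracks were rare, with 3, 3 and 1 in the remaining patterns. For the patterns with a track below zero, no share over all listed A domains was taken. Over the 499 members, Pearson r was 0.754 between progenitors and 30 min (Spearman rho 0.756), 0.714 between the times of activation (0.704) and 0.631 between progenitors and 15 min (0.628). With the untreated track, whose range the choice cuts, r was 0.312 for progenitors, 0.550 for 15 min and 0.383 for 30 min. Neighbouring bins share reads and members share chromosomes, so these are descriptions of the members.

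More members were above their flanks than were above zero. The domain was above the mean of its flanks in 470 of 496 members in progenitors (94.8%, all A domains 97.5%), in 487 at 15 min (98.2%, all A domains 99.2%) and in 483 at 30 min (97.4%, all A domains 98.9%). These shares lie near those of A domains in general. Of the members below zero, 107 of 121 in progenitors, 29 of 29 at 15 min and 119 of 121 at 30 min with bins on both sides were above their flanks. The highest bin of the whole window lay inside the domain in 61.7% of members in progenitors, 65.3% at 15 min and 59.3% at 30 min. In the untreated track, which chose the members, it was 68.1%. Domain bins made up 23.5% of the bins of these windows. That share is no chance level, because members were chosen as positive and adjacent bins overlap. For the highest bin, no share over all listed A domains was taken. In 11 members the domain was below its flanks even in the untreated track, which chose them (2.22%, all A domains 0.938%).

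**Figure D2:**
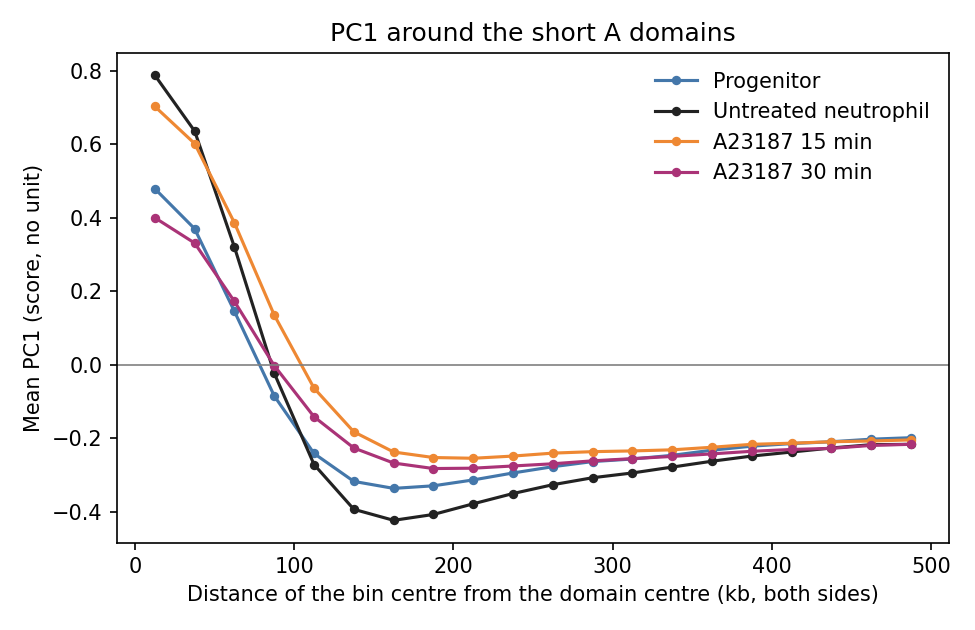
Mean PC1 (score, no unit) of all bins by distance from the centre of the 499 short A domains, in steps of 25 kb with both sides together, for each track. Within 25 kb of the centre the means were 0.788 (untreated), 0.703 (15 min), 0.479 (progenitor) and 0.400 (30 min), and from 475 to 500 kb all 4 were between -0.217 and -0.199.

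The difference between domain and flanks had a median of 0.911 in the untreated track, which chose the members, 0.761 at 15 min, 0.610 in progenitors and 0.520 at 30 min. From 75 to 100 kb from the centre mean PC1 was 0.135 at 15 min, and it was -0.0234 in untreated neutrophils, -0.0851 in progenitors and -0.00267 at 30 min, so 15 min alone was above zero at this distance. In the 25 kb step that starts 150 kb from the centre the untreated track had its lowest mean, -0.424, and the other tracks stood at -0.238 (15 min), -0.268 (30 min) and -0.337 (progenitor). The local variance of a track, taken from each bin against the 2 bins 50 kb away, was 0.022 in the untreated track, 0.0129 in progenitors, 0.0118 at 15 min and 0.00587 at 30 min. The smoothest track is thus the one with the lowest peaks, and the part of smoothness in the peak height was not tested. The local variance takes in the short peaks themselves. The close values of progenitors and 15 min, with medians of 0.301 and 0.576, therefore decide nothing here.

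Pairs of tracks that leave out the untreated one do not use the values that chose the members. The members are still domains that were positive in untreated neutrophils, so these pairs are not free of the choice. With the untreated track r was 0.550 for 15 min, 0.383 for 30 min and 0.312 for progenitors. The part of the choice in the changes below was not tested. From progenitors to 15 min the median change of the domain was 0.271 (quartiles 0.0282 and 0.468), and 384 of 499 members were higher at 15 min (77%, all A domains 63.4%). The median change was positive on 19 of 19 chromosomes, from 0.0150 on chromosome 13 to 0.455 on chromosome 14. Flanks changed by a median of 0.114 in the same direction.

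Progenitors and 30 min were closer to each other, with a median change of -0.0472 (quartiles -0.187 and 0.136). Here 217 members were higher at 30 min (43.5%, all A domains 52.4%), and the median change was positive on 6 of 19 chromosomes. From 15 to 30 min the median change was -0.30 (quartiles -0.453 and -0.0839), and 84 members were higher at 30 min (16.8%, all A domains 37.7%). The median was negative on all 19 chromosomes, from -0.382 on chromosome 3 to -0.0856 on chromosome 16. The flanks changed by a median of -0.0397. In A domains of 250 kb or more the median change of the domain between the times was -0.00398, and in those of 1 Mb or more the level was 1.25 at 15 min and 1.33 at 30 min.

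Against the untreated track, whose choice favours high values there, the members changed by a median of 0.00444 at 15 min and -0.315 at 30 min, and untreated neutrophils stood above progenitors by a median of 0.293. These comparisons share the untreated track. At 15 min 251 of 499 members were above their own untreated mean (50.3%, all A domains 44.0%). The flanks were higher in 361 of 496 (72.8%, all A domains 82.4%). The median change of the flanks was 0.123, below the 0.199 of all listed A domains. At 30 min 106 members were higher (21.2%, all A domains 34.3%), and the flanks were higher in 302 (60.9%, all A domains 72.3%). Flanks changed by a median of 0.0552 beside 0.142 for all listed A domains, and the domains by -0.315 beside -0.126.

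Domain and flank signs together give 4 states. In untreated neutrophils 285 members were positive between 2 negative flanks, and the other 211 were positive with at least 1 flank not below zero. Islands in this sense numbered 164 in progenitors (33.1%, all A domains 39.6%), 189 at 15 min (38.1%, all A domains 37.5%) and 131 at 30 min (26.4%, all A domains 35.1%). The share at 15 min thus lay near that of A domains in general. Positive domains with a flank not below zero numbered 211 in progenitors (42.5%, all A domains 49.0%), 278 at 15 min (56.0%, all A domains 59.6%) and 244 at 30 min (49.2%, all A domains 54.5%). A negative domain that still stood above its flanks was found for 107 members in progenitors (21.6%, all A domains 10.2%), 29 at 15 min (5.85%, all A domains 2.89%) and 119 at 30 min (24.0%, all A domains 10.2%). Negative domains not above their flanks numbered 14 in progenitors (2.82%), 0 at 15 min and 2 at 30 min (0.403%). Among A domains of 250 kb or more these were 3 (0.337%), 0 and 0 of 890.

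**Figure D3:**
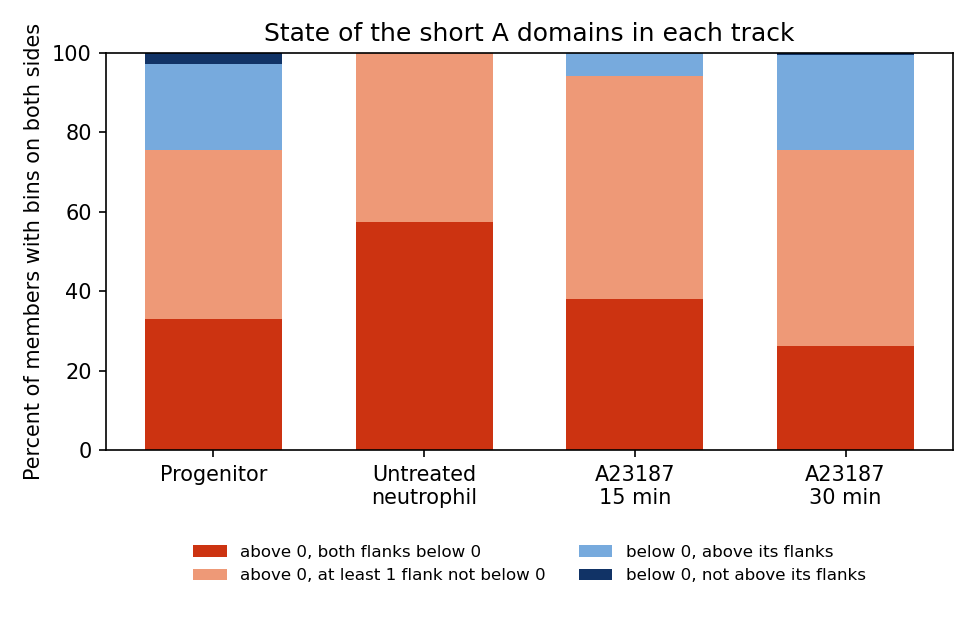
Percent of the 496 members with bins on both sides in each of 4 states, by track, from the signs of mean PC1 in the domain and in its flanks. The share between 2 negative flanks is 57.5% in the untreated track, which chose the members, and 33.1%, 38.1% and 26.4% in progenitors, at 15 min and at 30 min.

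The 285 islands of untreated neutrophils differed in their state elsewhere. No shares over all listed A domains were taken for this comparison. In progenitors 137 of them (48.1%) were islands as well, 65 were positive beside a flank not below zero, and 83 were negative. At 15 min 182 (63.9%) were islands, 82 (28.8%) were positive beside a flank not below zero and 21 were negative. At 30 min 122 (42.8%) were islands, 64 had a flank not below zero and 99 (34.7%) were negative. Of the 211 other members, 196 (92.9%) at 15 min and 180 (85.3%) at 30 min were also positive beside a flank not below zero. The 23 members with both untreated flanks not below zero had higher medians in progenitors (0.873), at 15 min (0.766) and at 30 min (0.863) than in the untreated track (0.454), and their flanks were higher there too (0.782, 0.660 and 0.885 against 0.260).

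The share below zero was highest among the shortest members. Of the 116 domains in the shortest class, 100 kb to 1 bin more, 46 (39.7%) were below zero in progenitors, 15 (12.9%) at 15 min and 51 (44.0%) at 30 min. Of the 55 in the longest class, just inside the limit, 8 (14.5%), 0 and 5 (9.09%) were. The 50 A domains just past the limit, 250 kb to 1 bin more, had 7, 2 and 7 below zero. Medians just inside and just outside the limit were 0.522 and 0.472 in progenitors, 0.713 and 0.747 in untreated neutrophils, 0.699 and 0.846 at 15 min, and 0.498 and 0.557 at 30 min, with overlapping ranges.

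Short domains also stood lower in the untreated track, so length and level go together. Among domains with an untreated mean from 0.25 to under 0.5, 68 of 164 members (41.5%) and 12 of 41 longer A domains (29.3%) were below zero at 30 min. In progenitors the shares were 35.4% and 19.5%, and at 15 min the longer domains had the higher share, 17.1% against 9.76%. From 0.5 to under 0.75, 36 of 180 members (20.0%) and 6 of 117 longer A domains (5.13%) were below zero at 30 min. In progenitors these were 37 (20.6%) and 17 (14.5%), and at 15 min 5 (2.78%) and 3 (2.56%). From 0.75 to under 1, 1 of 87 members and 4 of 242 longer domains were below zero at 30 min. In progenitors these were 3 (3.45%) and 10 (4.13%). In the lowest class, under 0.25, 23 of 51 members (45.1%) were below zero in progenitors, 8 (15.7%) at 15 min and 17 (33.3%) at 30 min. That class held only 6 longer domains, and its share at 30 min was lower than that from 0.25 to under 0.5. Of the 17 members at 1 or more, 0 were below zero in any track.

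**Figure D4:**
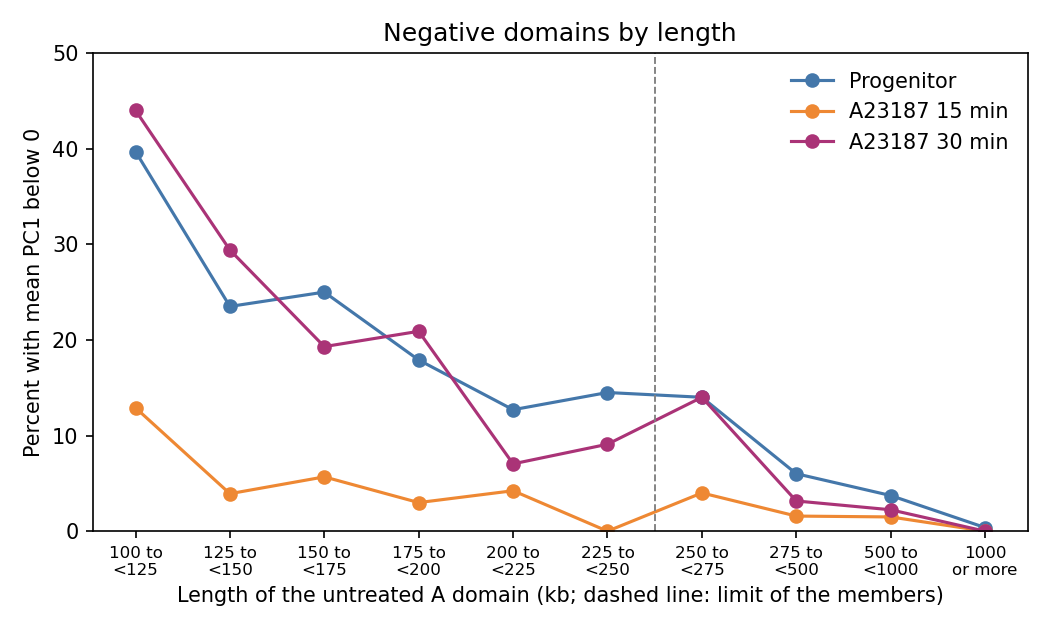
Percent of listed autosomal A domains with mean PC1 below zero in the progenitor, 15 min and 30 min tracks, by length of the domain in untreated neutrophils (kb). The dashed line marks the limit of the members; from the shortest class to the longest the share runs from 39.7% to 0.379% in progenitors, from 12.9% to 0 at 15 min and from 44.0% to 0 at 30 min.

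What choosing on 1 track does was described by calling short A runs on every track by 1 rule, a run of at least 2 positive bins under 250 kb. The untreated track had most, 802, while progenitors had 588 and the activated tracks 597 (15 min) and 356 (30 min), in the order of the local variances for the highest and the lowest. Of the untreated runs, 33.7% were below zero in progenitors, 10.1% at 15 min and 35.8% at 30 min. Of the progenitor runs, 16.2% were below zero in the untreated track, 11.1% in the 15 min track and 25.0% in the 30 min track. Runs called at 30 min were below zero in 23.6% of cases in progenitors, 14.3% in untreated neutrophils and 8.71% at 15 min. Runs called at 15 min were the least shared, with 52.6% below zero in progenitors, 58.0% at 30 min and 27.5% in untreated neutrophils. Every bin of a run is positive in the track that made the call, so these shares leave that track out. For each call, runs were below zero less often in the remaining untreated or 15 min tracks than in the remaining progenitor or 30 min tracks.

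Short B domains are the mirror image of the members. Of 395 listed autosomal B domains under 250 kb, 50.4% were above zero in progenitors, 61.0% at 15 min and 59.5% at 30 min, beside 21.5%, 24.3% and 22.2% of all listed B domains. The shares of short A domains below zero were 24.2%, 5.81% and 24.4%. The untreated median of the short B domains was -0.266, nearer to zero than the 0.55 of the members. The difference between the lists was not tested.

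Regions named here were ranked on the values themselves, among 282 members with both untreated flanks below zero and at least 5 bins on either side, and are examples without a test. The first 3 are those whose lowest difference from their flanks over the 4 tracks was largest, and each was an island in all 4 tracks. The largest differences of any member were 1.54 (progenitors), 2 (untreated), 1.7 (15 min) and 1.48 (30 min). To these digits they equal those of the named region on chromosome 1 and, at 30 min, on chromosome 5. In single tracks other members exceed some of the 3. On chromosome 5, 112625001 to 112825000 had a mean PC1 of 0.650 in progenitors, 1.00 in untreated neutrophils, 1.02 after 15 min and 0.896 after 30 min. Its flanks stood at -0.786, -0.780, -0.657 and -0.583. The domain was lowest in progenitors and fell by 0.125 from 15 to 30 min.

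On chromosome 1, 169125001 to 169350000 had 0.698, 1.29, 1.09 and 0.540 in the same order, with flanks between -0.841 and -0.608. On chromosome 10, 70675001 to 70875000 had 0.433, 0.868, 0.865 and 0.292, with flanks between -0.893 and -0.811. Both were highest in untreated neutrophils and at 15 min, and lowest at 30 min.

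The 5 members whose lowest value over the other 3 tracks was highest were positive everywhere, and 3 of them, on chromosomes 7, 17 and 6, had flanks above zero in the 3 other tracks; negative untreated flanks were a condition for being named. On chromosome 7, 151600001 to 151800000 had 1.28 in progenitors, 0.834 in untreated neutrophils, 1.09 after 15 min and 1.06 after 30 min. Its flanks were at 0.560, -0.363, 0.296 and 0.477, the lowest in the untreated track.

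Chromosome 17 from 44150001 to 44300000 had 1.22, 0.629, 0.919 and 0.873, with flanks of 0.884, -0.302, 0.397 and 0.611. Chromosome 6 from 84500001 to 84700000 had 0.840, 0.373, 0.872 and 0.888, with flanks of 0.707, -0.252, 0.593 and 0.529. In both, domain and flanks were lowest in untreated neutrophils. On chromosome 13, 32850001 to 33050000 had 1.12, 0.820, 0.973 and 0.900, and its flanks were at 0.344, -0.625, -0.209 and 0.174. Chromosome 15 from 34325001 to 34500000 varied least, with 0.941, 0.781, 0.865 and 0.784 and flanks of -0.206, -0.367, 0.0720 and 0.0461.

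Of 15 such members that were negative in progenitors and positive in the other 3 tracks, the 4 lowest in progenitors are given. Chromosome 1 from 84250001 to 84475000 was at -0.623 in progenitors, 0.771 in untreated neutrophils, 0.190 after 15 min and 0.213 after 30 min. Its flanks were negative in all tracks, between -0.754 and -0.424. The region stood lower at both times of activation than in the untreated track.

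Another on the same chromosome, 46375001 to 46475000, went from -0.540 in progenitors to 0.104 in untreated neutrophils, and stood at 0.704 after 15 min and 0.329 after 30 min. On chromosome 6, 58800001 to 58950000 had -0.496, 0.559, 0.168 and 0.321. On chromosome 14, 107325001 to 107550000 had -0.429, 0.198, 0.297 and 0.214. The first of these 3 was highest at 15 min, the second in untreated neutrophils, and the third ranged from 0.198 to 0.297 over the neutrophil tracks.

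Of 19 such members below zero in all 3 other tracks, the 4 whose highest value over those tracks was lowest are given; a positive untreated value is part of the choice. Chromosome 13 from 119500001 to 119650000 had -0.659 in progenitors, 0.415 in untreated neutrophils, -0.577 after 15 min and -0.660 after 30 min, and its flanks were also highest in untreated neutrophils (-0.359, against -1.11 to -0.970). Chromosome 4 from 71050001 to 71200000 had -0.533, 0.517, -0.218 and -0.475. Its flanks stood at -0.264 in the untreated track and at -0.821 to -0.767 elsewhere. In both regions the flanks, like the domain, were highest in the untreated track.

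Chromosome 16 from 39800001 to 39950000 had -0.157, 0.126, -0.444 and -0.380, and chromosome 3 from 158075001 to 158175000 had -0.226, 0.298, -0.142 and -0.574. In each the flanks were again highest in the untreated track, at -0.299 and -0.345.

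A fall across zero from 15 to 30 min was found in 78 of the 282 and a rise in 1. Among all listed A domains 2.86% were below zero at 15 min and 10.4% at 30 min, so falls outnumber rises there too. The share of all listed A domains with such a fall was not taken. The largest fall was on chromosome 5, 81450001 to 81575000, with -0.373 in progenitors, 0.586 in untreated neutrophils, 0.459 after 15 min and -0.466 after 30 min. Chromosome 10 from 29000001 to 29100000 had -0.0468, 0.725, 0.758 and -0.158. Chromosome 1 from 67375001 to 67500000 had -0.621, 0.417, 0.488 and -0.370. Their signs at 15 and 30 min were set by the ranking, and the untreated sign by the choice of members. All 3 were negative in progenitors, the only sign that was not set.

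The single rise was on chromosome 2, 14450001 to 14650000, with 0.284, 0.645, -0.143 and 0.393. One member, on chromosome 9 from 3350001 to 3450000, was above zero in progenitors and below it at both times, but its values were near zero in progenitors (0.000896) and at 15 min (-0.00206), with 0.288 in untreated neutrophils and -0.280 at 30 min.

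**Figure D5:**
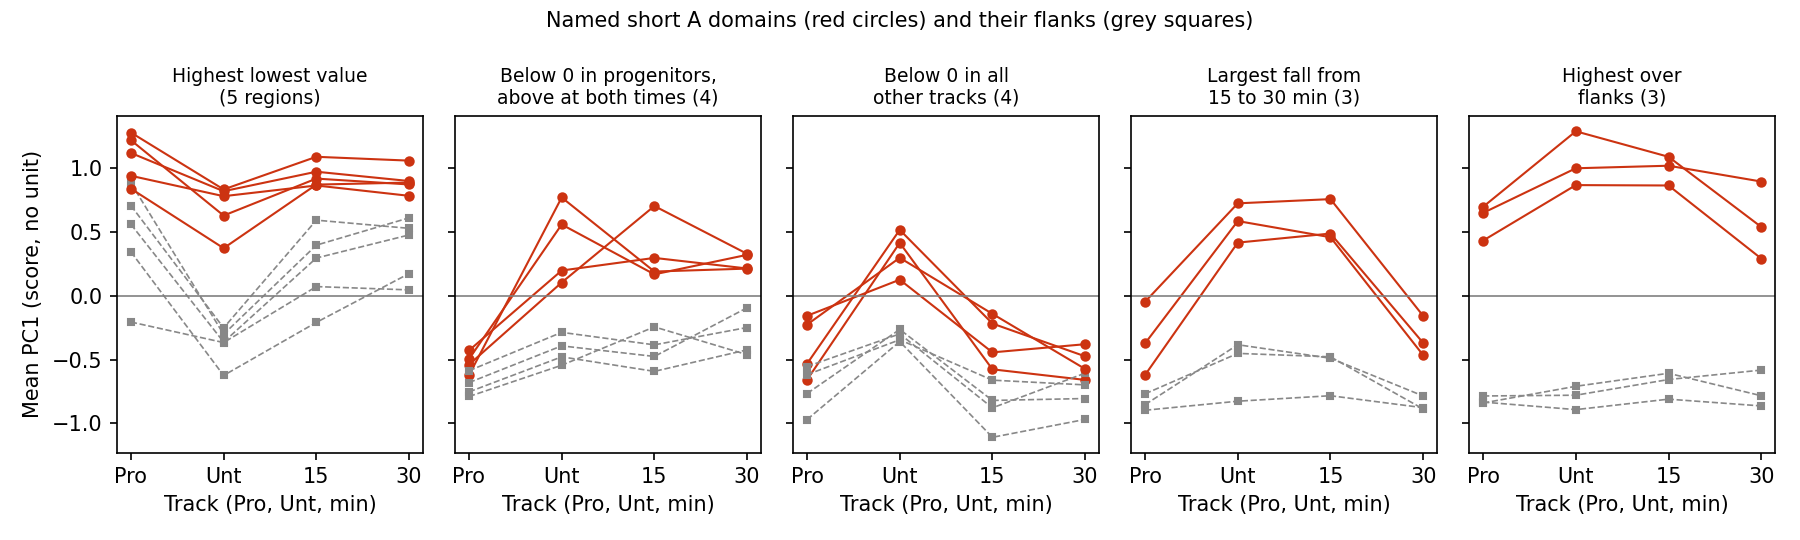
Mean PC1 (score, no unit) of the named members other than the single ones of chromosomes 2 and 9 (red circles, solid lines) and of their flanks (grey squares, dashed lines) in the progenitor (Pro), untreated (Unt), 15 min and 30 min tracks, 1 panel for each ranking. The 3 members with the largest fall stand at 0.459 to 0.758 at 15 min and at -0.466 to -0.158 at 30 min, and untreated flanks are below zero in all panels because only such members were ranked.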

How the data were processed

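The authors made the tracks and domain lists with build mm9; HiC-Pro, Bowtie2 and HOMER are named in the submitters' processing notes, and no version or setting is given. The deposited PC1 and domain values are scores without a unit. Bins are 25 kb apart, and windows of 50 kb are named in the titles of the tables, so adjacent bins overlap. For 498 of 499 members the deposited domain score and the mean of untreated PC1 over the domain's bins differed by at most 0.001.

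Autosomal bins with a value in all 4 tracks were used (94800 of 95104). Domain values are means over bins whose centre lies in the domain, and flank values are means over the 250 kb on both sides together; 3 members had no bin on 1 side and have no flank value. Changes are second track minus first. Tools were Python 3.11.15, numpy 2.4.6, pandas 2.3.3, scipy 1.17.1 and matplotlib 3.10.9 and the measures were tested on simulated data. Coordinates are 1-based. Members, lists and ranking rules were chosen with earlier results of these data known; regions were named by ranks on their own values among members with at least 3 bins, at least 5 bins on either side and both untreated flanks below zero (5 with the highest lowest value over the other tracks, 4 lowest in progenitors and positive after activation, up to 4 positive in progenitors and lowest after activation, 4 negative in the 3 other tracks with the lowest highest value there, the 3 largest falls and up to 3 largest rises across zero between the times, 3 with the largest lowest difference from their flanks over the 4 tracks). The other 148 samples of the series (ChIP, ATAC, GRO and input libraries) were not analysed here.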

Additional observations from a re-analysis of the deposited data

Results flagged for a closer look

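Changes from the untreated track had opposite signs at 15 and 30 min in 165 of the 499 members, of which 155 were higher at 15 min and lower at 30 min (31.1%, all listed A domains 19.3%) and 10 the reverse (2.0%, all listed A domains 9.52%). Both changes are taken from the untreated track, whose values chose the members and which the signs share. Each time has 1 track, so none of these differences was tested. The median change over the members was 0.00444 at 15 min and -0.315 at 30 min, a difference of -0.319. Among the 21 named regions 3 had opposite signs. On chromosome 10, 29000001 to 29100000 changed by 0.0336 and -0.883, a difference of -0.916. On chromosome 1, 67375001 to 67500000 changed by 0.0715 and -0.787, a difference of -0.858, and both were ranked on the fall between the times. On chromosome 5, 112625001 to 112825000 changed by 0.0185 and -0.107, a difference of -0.125.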

How the results depend on the processing

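No paired analysis was possible because each group has 1 track and no test was made. A pair of settings, bins wholly inside the domain and members of at least 3 bins, left all 16 values as they were and say nothing of stability. The 223 values under the other 32 settings were set against the 95% Wilson interval of the value reported. Counts of runs were set against 1.5 times the value. Of the 223 values, 188 stayed within these limits and 35 did not. The interval takes domains as independent draws, which they are not, so it is a yardstick and no measure of replicate spread. Leaving out 1 autosome at a time gave 152 of the 223 values. It keeps most members, so these values could hardly leave the interval, and 0 of the 152 did. All 35 that moved thus came from the other settings. Without 1 autosome, the shares below zero were 23.2 to 25.1% in progenitors, 4.93 to 6.12% at 15 min and 23.3 to 25.4% at 30 min.

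Below zero, in the order progenitors, 15 min and 30 min, were 31.3%, 18% and 36.1% after quantile normalization and 19.0%, 2.61% and 18.2% with a margin of 0.1. It was 30.0% at 30 min with members under 200 kb, and 29.7% in progenitors with a running mean of 3 bins. Among members with both untreated flanks below zero it was 29.1% in progenitors and 34.7% at 30 min. Above zero in all 4 tracks were 61.9% under 200 kb, 54.1% after quantile normalization, 56.3% with the margin, 62.1% with the running mean and 59.6% of members with both flanks below zero.

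Above their flanks, in the same order, were 98.6%, 99.4% and 99.4% with flanks of 5 bins a side, 91.5%, 95.4% and 94.0% with 500 kb, 99.5%, 100% and 99.8% with flank bins of listed B domains only, and 99.6%, 100% and 99.6% of members with both flanks below zero. Without the first 50 kb beside the domain these were 96.3% at 15 min and 94.9% at 30 min. Both untreated flanks were below zero in 76.8% with the shorter flanks, 49.2% with 500 kb and 68.5% by medians over bins. Runs of at least 4 bins numbered 359 in progenitors, 506 in untreated neutrophils and 352 at 15 min. In each alternative the share below zero was lowest at 15 min, while the order of progenitors and 30 min varied. With 1 track a group, no replicate could be left out.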

Other observations

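On chromosome X, which the members leave out, 26 A domains under 250 kb were listed. Their median PC1 was 0.258 in the untreated track that listed them, 0.0711 in progenitors, and 0.376 (15 min) and 0.161 (30 min) after activation. Below zero were 11 in progenitors, 4 at 15 min and 9 at 30 min.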
